A study of Mus musculus with 18 samples.

Results

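The sorting nexins, the vacuolar protein sorting (Vps) genes and the charged multivesicular body protein (Chmp) genes were followed through postnatal development of the mouse ileum. Members were the genes with a single annotated symbol that starts with Snx, Vps or Chmp followed by a number, and each was read from its probe set with the highest mean over all arrays. There were 75 members, 30 Snx, 35 Vps and 10 Chmp genes, among 18194 genes with a probe set of 1 symbol. No difference between ages entered that rule.

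Ileum, the last stretch of the small intestine, came from C57BL/6 mice, an inbred laboratory strain, on postnatal days 4, 7, 9, 11, 24 and 32, with 3 individual mice at each age. The labels name no treatment or mutation, so the groups are defined by age alone, and they give no sex, litter or batch. The tissue pieces held every layer of the gut wall, and RNA came from the lining and from muscle, nerves, vessels, connective tissue and immune cells together. The 12 arrays of days 4 to 11 are called before weaning and the 6 arrays of days 24 and 32 after weaning. The labels give no day of weaning, which was placed between day 11 and day 24 because laboratory mice are commonly weaned in that interval. Levels are log2 values per probe set on Affymetrix GeneChips, summarised by RMA, and the levels of different probe sets cannot be set against each other.

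Sorting nexins, retromer and the tethering complexes move receptors and membrane between endosomes, the Golgi, the cell surface and the lysosome. ESCRT complexes bud vesicles into the endosome on the way to lysosomal degradation and also cut membrane necks in cell division and repair. In suckling rodents the absorptive cells of the ileum take up milk proteins through a large apical endosome and lysosome system that is lost around weaning.

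Of the 75 members, 63 reached log2 6 on at least 3 arrays and were tested, and 49 of these reached it on all 18 arrays. The other 14 reached it on some arrays only. Snx8 and Snx30 did so on the 12 arrays before weaning alone, Vps33a on 4 arrays before weaning and Vps37b on 4 after it, so the inclusion of these genes rested on the group in which each was high and their tests carry that choice. The 12 members not tested were Snx10, Snx11, Snx21, Snx22, Snx29, Snx31, Snx32, Snx33, Vps13a, Vps13c, Vps25 and Vps37d, and their values on single arrays ran from 2.33 to 5.93. The array medians lay between 3.88 and 3.97 and the table holds no detection calls, so the dimmest of these levels cannot be told from background.

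Across the 6 ages 48 of the 63 tested members changed (limma F test, Benjamini-Hochberg adjusted over the 8622 genes tested), beside 68.3% of all genes tested. After weaning 38 members were lower, beside a background of 41.8%, and 11 were higher, beside 31.0%. The median member difference was -0.35 on the log2 scale, and the median over all genes tested was -0.07. Of the members tested, 60.3% were thus lower and 17.5% higher, and the contrast with all genes was not tested. Counts after weaning by complex or list, given below, have the same background of 41.8% lower and 31.0% higher. They were not tested against it. Arrays after weaning all lay below those before in 26 members, against 21.7% of all genes, and all above in 5, against 15.4%. A difference of at least 2-fold was called lower in 4 members, Snx8, Snx30, Vps26a and Snx2, and higher in 0. The share of all genes with a called difference of that size was not counted. The first principal component of the 63 members carried 81.0% of their variance and the next 6.00%, but Snx8 alone supplied 38.9% of the summed squares. Without Snx8 the first component carried 70.0% and the next 9.67%, and without Snx8 and Snx30 they carried 67.3% and 10.7%.

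**Figure D1:**
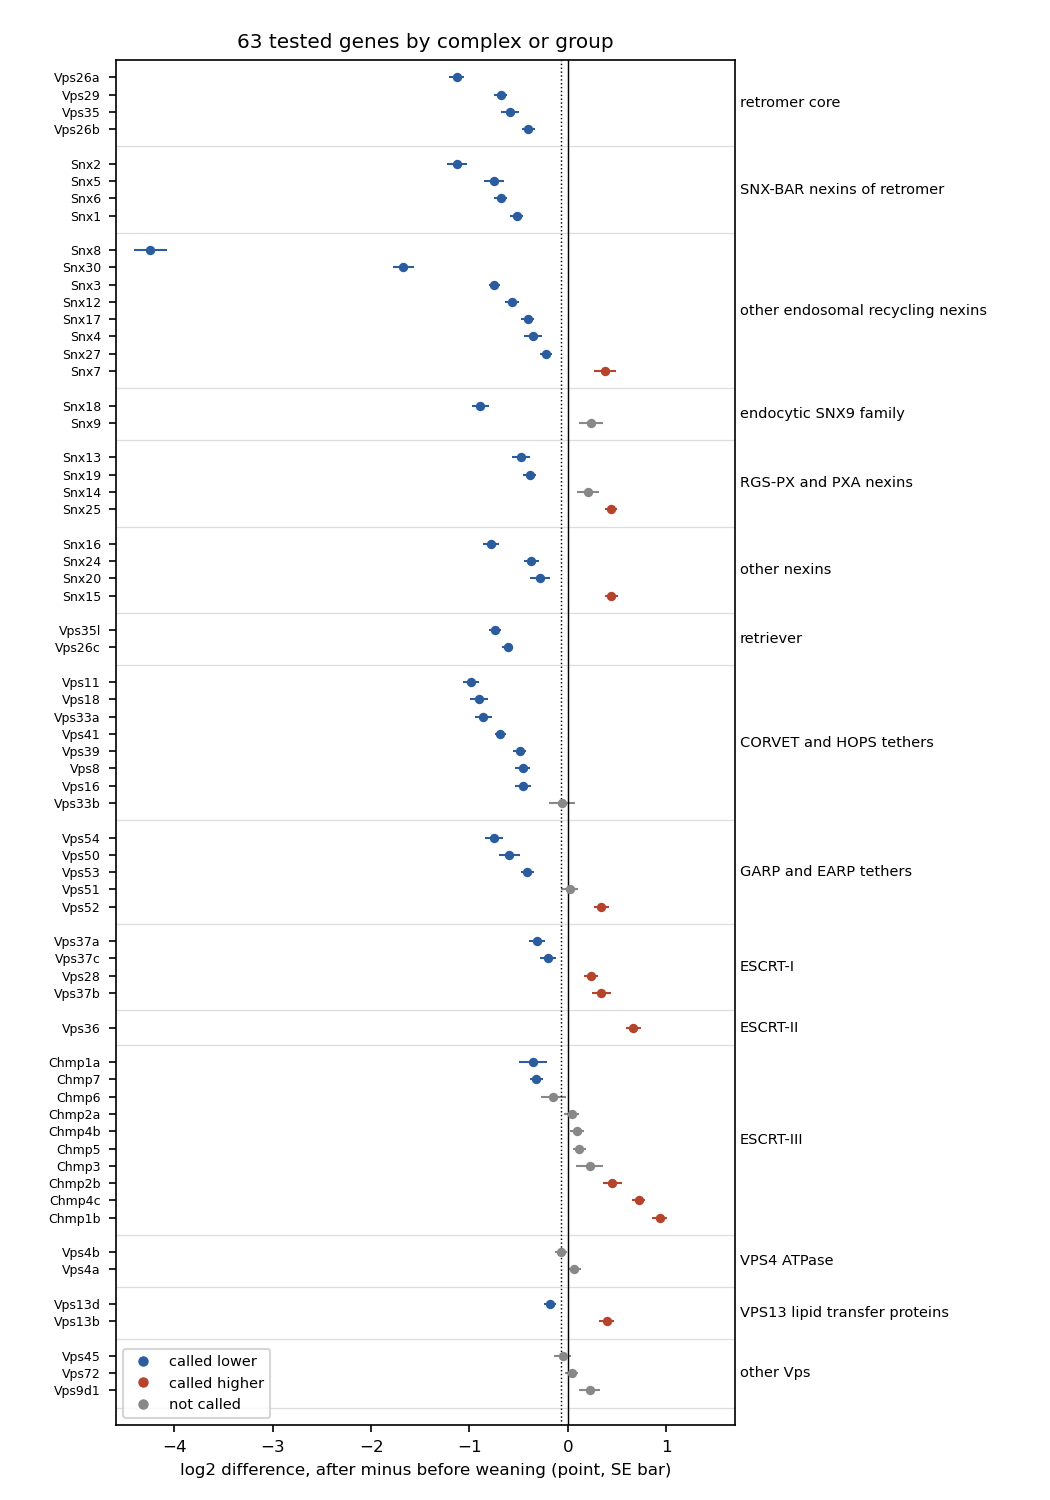
Log2 difference after minus before weaning (x axis) for each of the 63 tested members (y axis), grouped by complex, with the standard error from the fit as a bar. Blue points were called lower, red points higher and grey points neither, the solid line marks no difference and the dotted line the median of all genes at -0.07. Retromer, its nexins and the tethers lie left of 0 apart from Vps51 and Vps52, while ESCRT genes lie on both sides.

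Markers of cell types were measured on the same arrays. Epithelial markers were higher in 5 of 6 and lower in 1, with a summed level (log2 of the sum) of 13.99 to 14.21 before and 14.63 to 14.97 after weaning. Fibroblast markers were lower in 5 of 5 (13.29 to 13.92 against 12.19 to 12.90), as were 3 of 3 tested nerve and glia markers (8.10 to 8.59 against 6.92 to 7.34) and 2 of 2 of endothelium (7.71 to 8.06 against 6.68 to 6.88). Smooth muscle markers were lower in 1 and higher in 2 of 6 (13.54 to 13.86 against 13.33 to 13.82), and leukocyte markers lower in 1 and higher in 2 of 4 (11.50 to 11.70 against 9.40 to 11.53). Log2 values of this kind have no 0, and Cd3e, Elavl4, S100b, Cdh5 and Tek were below the filter. The part of tissue makeup in the members' differences was not tested, and in whole tissue fewer cells of a type and less RNA per cell cannot be told apart. All 4 ileal markers were higher after weaning, and the bile acid transporter Slc10a2 stood at 2.00 to 2.28 before it, below the array medians.

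Control probe sets also moved with age. The arrays fell into a higher and a lower group by their hybridization spikes, RNAs added at hybridization, and the higher group held 4 of 12 arrays before and 6 of 6 after weaning. Poly-A spikes, added to the RNA before labelling, ran from 3.53 to 4.51 before and 4.98 to 6.37 after. The control probe sets for 18S ribosomal RNA ran from 4.93 to 8.19 before and from 7.01 to 10.85 after weaning, and they separated the later ages, with day 24 at 10.26 to 10.85 and day 32 at 7.01 to 7.96. The part of these controls in the members' differences, between the stages and between day 24 and day 32, was not tested beyond the fits given here. Xist, an X-linked RNA that female cells make, was low on 3 of 12 and 5 of 6 arrays. With the hybridization group as a block 32 members were lower and 15 higher after weaning. Within the higher group alone the counts were 29 and 12, and with the level of Xist as a covariate 37 and 10. Of all 8622 genes these fits called 3062 lower and 2656 higher, 2762 and 2358, and 3214 and 2253, in that order. The higher group holds 2 arrays of day 4, 1 of day 7, 0 of day 9, 1 of day 11 and 3 each of days 24 and 32, so its ages with a lone array were taken to vary like the others. The block ended 6 stage calls, those of Chmp1a, Snx4, Snx20, Vps13d, Vps37a and Vps37c, and the higher group alone ended these and those of Chmp7, Snx7, Snx27 and Vps16.

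The promoters of the members were searched for the E-box CACGTG, and for TCACGTGA and GTCACGTGAC, extended forms bound by regulators of lysosomal genes, in the 250 bases before each gene start (both strands, which read alike for these palindromes, the shorter forms lying inside the longer). RefSeq windows of GRCm38.p6 were found for 49 of the 75 members. CACGTG was in 6 of the 49 (12.2%), beside 6.86% of 27025 genes, and TCACGTGA in 3 (6.12%), beside 0.907%. The 3 with TCACGTGA also hold GTCACGTGAC, which 0.270% of all genes have. The 6 genes, Snx5, Snx8, Snx18, Vps16, Vps26a and Vps33a, were all called lower after weaning. Of the 49 with a window, 27 were called lower, 5 higher and 8 neither, and 9 were not tested. Snx8 and Vps33a entered the test through arrays before weaning alone. A match is a string of letters in the window and not a measured site. The windows of the genes with the longest form, and of Snx8 as the member with the largest difference, are shown 5′ to 3′ on the gene's strand, ending at the base before the gene start, with the motifs in capitals. They lie at chr2:130424070-130424319 on the plus strand (Vps16) and, on the minus strand, at chr10:62486806-62487055 (Vps26a), chr5:123573016-123573265 (Vps33a) and chr5:140389309-140389558 (Snx8). Vps26a has 2 starts in the table, and the window of the outer one is shown.
Vps16: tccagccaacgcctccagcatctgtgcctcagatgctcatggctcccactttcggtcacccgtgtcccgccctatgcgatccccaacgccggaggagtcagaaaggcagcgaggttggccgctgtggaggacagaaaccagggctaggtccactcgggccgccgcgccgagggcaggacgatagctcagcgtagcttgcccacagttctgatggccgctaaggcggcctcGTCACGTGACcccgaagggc
Vps26a: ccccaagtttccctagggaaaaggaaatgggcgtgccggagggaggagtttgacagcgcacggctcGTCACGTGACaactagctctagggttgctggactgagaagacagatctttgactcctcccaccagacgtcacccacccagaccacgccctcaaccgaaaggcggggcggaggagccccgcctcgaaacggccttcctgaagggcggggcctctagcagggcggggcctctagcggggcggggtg
Vps33a: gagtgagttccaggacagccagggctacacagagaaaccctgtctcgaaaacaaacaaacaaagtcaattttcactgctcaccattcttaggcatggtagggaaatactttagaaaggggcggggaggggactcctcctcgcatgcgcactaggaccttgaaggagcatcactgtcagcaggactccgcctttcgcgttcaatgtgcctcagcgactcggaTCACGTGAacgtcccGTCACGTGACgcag
Snx8: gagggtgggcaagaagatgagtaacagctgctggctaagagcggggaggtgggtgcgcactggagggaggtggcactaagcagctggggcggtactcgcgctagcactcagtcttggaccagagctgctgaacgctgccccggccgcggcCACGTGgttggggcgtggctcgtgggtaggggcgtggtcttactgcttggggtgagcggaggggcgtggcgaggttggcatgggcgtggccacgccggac
The motif of Vps16 starts 20 bases, that of Vps26a 184 bases and that of Snx8 100 bases before the gene start. Vps33a holds 2 E-boxes, of which the longer starts 14 bases before it.

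The retromer core fell as a whole, with all 4 measured subunits lower after weaning (median log2 difference -0.64). Vps35, the scaffold of the complex, stood at 9.98 to 10.71 before weaning (median 10.39, n = 12) and at 9.73, 9.80 and 9.82 on day 24 and 9.79, 9.80 and 9.96 on day 32. Every array after weaning was below every earlier one, by a narrow margin. The difference was -0.59 ± 0.09 (SE, limma adjusted p = 1.62e-05), or 1.51-fold lower. A second, dim probe set of Vps35 differed by 0.06, and with the mean of both the difference was -0.26 (adjusted p = 0.267). Vps29, the subunit that docks regulators onto the scaffold, went from 9.73 to 10.22 (median 10.11) down to 9.33 to 9.47 (median 9.39), 1.61-fold lower. The arrays of these groups did not overlap.

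Vps26a and Vps26b are alternative arrestin-like subunits that link retromer to its nexins. Vps26a stood at 9.54 to 10.02 before weaning (median 9.83), at 8.42, 8.61 and 8.64 on day 24 and at 8.66, 8.77 and 8.79 on day 32. All arrays after weaning lay far below all earlier ones, and those of day 24 were the lowest. The difference was -1.13 ± 0.07 (SE, n = 6 against 12, limma adjusted p = 1.31e-10), which is 2.19-fold lower. Vps26b was lower by a smaller amount, from 7.40 to 7.74 (median 7.57) to 7.05 to 7.24 (median 7.18), a log2 difference of -0.40 ± 0.07 (limma adjusted p = 2.15e-05). The unequal change was tested within arrays, as the log2 value of Vps26a minus that of Vps26b. This within-array difference moved by -0.73 after weaning without overlap between the groups (exact two-sided permutation test over arrays, p = 5.4e-05, the smallest that 18564 allocations can give, adjusted p = 0.000296 over 11 pairs).

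The SNX-BAR nexins, which curve and tubulate the endosomal membrane with retromer, were all lower in the 4 tested members (median -0.72). Snx2 was at 9.37 to 9.88 before weaning (median 9.65), at 8.16, 8.27 and 8.59 on day 24 and at 8.56, 8.57 and 9.02 on day 32. Its groups did not overlap, and the highest value after weaning came from a day 32 array. The difference was -1.12 ± 0.10 (SE, limma adjusted p = 1.11e-08), 2.18-fold lower. Snx1, which pairs in the same position as Snx2, differed by -0.52 ± 0.07 (limma adjusted p = 1.82e-06), from a median of 8.35 to 7.92. Snx1 minus Snx2 within an array therefore rose by 0.60 (exact permutation adjusted p = 0.00119), with some overlap of arrays.

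Snx5 and Snx6, the partners of Snx1 and Snx2 in the dimer, fell by similar amounts, with differences of -0.75 ± 0.10 and -0.68 ± 0.07 (SE). Their groups did not overlap, with Snx5 at 9.54 to 10.24 before and 8.78 to 9.39 after weaning and Snx6 at 8.38 to 8.78 and 7.82 to 8.19. Snx5 minus Snx6 moved by -0.07 (exact permutation adjusted p = 0.576), less than the spread over arrays of 0.18 before and 0.32 after weaning (SD). With the mean of each gene's probe sets it was -0.31 (adjusted p = 0.0114), and the faintest of the 4 Snx6 probe sets differed by 0.11 on its own. Relative to its mean before weaning, Snx5 minus Snx6 lay at -0.53 to -0.19 on day 24 (mean -0.34) and at 0.14 to 0.30 on day 32 (mean 0.20), so the mean over both ages combines values on either side of 0 that did not overlap. A further SNX-BAR gene, Snx32, was below the filter on all arrays.

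**Figure D2:**
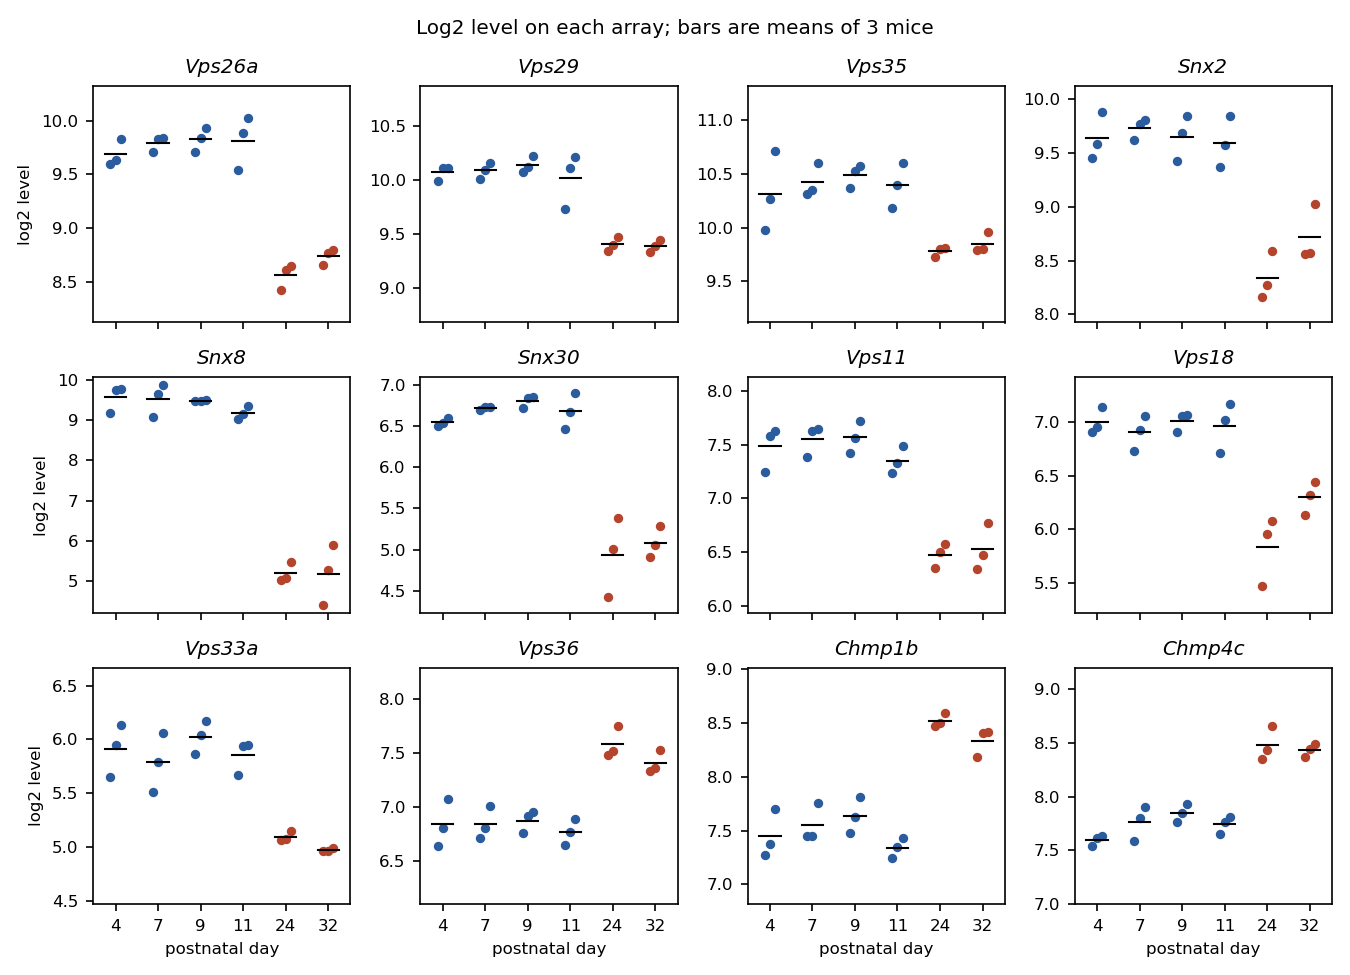
Log2 level (y axis, with its own range in each panel) against postnatal day (x axis, ages evenly spaced) for 12 members, 1 point per mouse, with a bar at the mean of the 3 mice; blue is before and red after weaning. The top rows hold genes that were lower after weaning, such as Snx8 at 9.02 to 9.87 before and 4.40 to 5.89 after, and the bottom row ends with Vps36, Chmp1b and Chmp4c, which were higher.

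Among the other nexins of endosomal recycling, 7 of 8 tested members were lower and 1 higher (median -0.49). Snx8, a BAR nexin of early endosomes, stood at 9.02 to 9.87 before weaning (median 9.47), at 5.03, 5.08 and 5.47 on day 24 and at 4.40, 5.27 and 5.89 on day 32. A gap of more than 3 log2 units separated the groups, and the arrays after weaning spread more widely than those before. Its difference of -4.24 ± 0.17 (SE, n = 6 against 12, limma adjusted p = 9.54e-14) was the largest of the 63 members, 19.0-fold lower. Only 1 probe set represents Snx8, and its level after weaning was above the array medians but below log2 6, so the fold depends on the background correction. Its inclusion in the test rested on the arrays before weaning.

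Snx30, a BAR nexin that pairs with Snx4, stood at 6.47 to 6.90 before weaning (median 6.71), at 4.43, 5.01 and 5.38 on day 24 and at 4.91, 5.06 and 5.29 on day 32. The groups were well apart, and the difference was -1.68 ± 0.11 (SE, limma adjusted p = 8.72e-11), 3.19-fold lower. Every Snx30 level after weaning was below log2 6, so its inclusion in the test rested on the arrays before weaning. Snx7, the alternative partner of Snx4, was the only member of this group that was higher, by 0.38 ± 0.11 (limma adjusted p = 0.00635). Its arrays overlapped, from 7.79 to 8.50 before and 8.13 to 8.79 after weaning, and with the level of Xist as a covariate the adjusted p was 0.134. Snx4 itself differed by -0.35 ± 0.09 (limma adjusted p = 0.00142). With the hybridization group as a block its adjusted p was 0.107.

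Snx3, a small nexin that recruits retromer to early endosomes, went from 10.76 to 11.14 (median 10.86) to 9.97 to 10.24 (median 10.19). No arrays overlapped, and the difference was -0.75 ± 0.06 (SE, limma adjusted p = 1.43e-09). Its closest relative Snx12 differed by -0.57 ± 0.07, and Snx3 minus Snx12 within an array moved by -0.18 (exact permutation adjusted p = 0.0116, and 0.0571 with averaged probe sets). Snx17, the cargo adaptor of the retriever complex, differed by -0.41 ± 0.06 without overlap. Snx27, the PDZ-domain nexin that brings receptors to retromer, differed by -0.22 ± 0.06 (limma adjusted p = 0.00287), with its lowest earlier array at 6.16 and its highest later one at 6.20, and its adjusted p was 0.0634 under quantile normalization.

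Snx9 and Snx18 act at the plasma membrane, where they bend the neck of endocytic pits together with dynamin. Snx18 stood at 7.57 to 8.16 before weaning (median 7.74) and at 6.62 to 7.13 after it (median 6.79). It was 1.85-fold lower, with no overlap of arrays (-0.89 ± 0.09, SE, limma adjusted p = 5.43e-08). Snx9 was not called, at 0.23 ± 0.12 (limma adjusted p = 0.0936), and its dimmer probe set was called in the opposite direction at -0.27 ± 0.07. The brighter one was called higher under cyclic loess (adjusted p = 0.027), with array weights (0.0111), and without day 4 replicate 1 (0.0273), day 11 replicate 2 (0.0498) or day 24 replicate 3 (0.0349). Snx9 minus Snx18 moved by 1.12 after weaning (exact permutation adjusted p = 0.000444), and the paired plot shows its day 32 arrays above its day 24 arrays.

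The nexins with RGS-like and PXA domains, several of which sit at contacts of the endoplasmic reticulum with other organelles, did not move together. Snx13 differed by -0.47 ± 0.09 and Snx19 by -0.39 ± 0.07, both called lower, and Snx25 by 0.44 ± 0.06, called higher (limma adjusted p = 0.000162, 4.31e-05 and 7.31e-06). Snx25 arrays did not overlap, at 6.80 to 7.04 before and 7.17 to 7.67 after weaning. When the 3 probe sets of Snx13 were averaged its difference was 0.02, so its direction rests on the brightest probe set. Snx14 differed by 0.21 ± 0.11 and was not called, but was called higher under quantile normalization (adjusted p = 0.0314) and cyclic loess (0.0292) and without day 4 replicate 1 (0.0488) or day 11 replicate 2 (0.045).

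Of 4 further nexins tested, Snx16, Snx20 and Snx24 were lower and Snx15 higher. Snx16, which binds endosomes through its PX domain, held 6.85 to 6.95 on the 6 arrays of days 4 and 7, 7.13 to 7.60 on days 9 and 11, 6.55 to 6.88 on day 24 and 5.74 to 6.20 on day 32. Its level was thus highest on days 9 and 11 and lowest on day 32, and the stage groups overlapped only at their edges. The difference between the stages was -0.78 ± 0.08 (SE, limma adjusted p = 8.89e-08). Snx24, which holds little beyond a PX domain, differed by -0.37 ± 0.08. Snx15 went from 6.48 to 6.81 to 6.89 to 7.22, without overlap (0.44 ± 0.07). Snx20, a nexin known from blood cells, differed by -0.28 ± 0.10 (limma adjusted p = 0.0193), and that call was lost under quantile normalization (adjusted p = 0.124) and cyclic loess (0.0667). With the hybridization group as a block the difference was -0.18 (adjusted p = 0.266), and within the higher group -0.15 (adjusted p = 0.454). It was lost as well without day 24 replicate 2 (0.0868) or day 32 replicate 2 (0.0913).

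Retriever is a complex related to retromer that recycles receptors with the CCC complex. The tested members assigned to it here were lower without overlap, Vps26c by -0.61 ± 0.05 and Vps35l by -0.74 ± 0.06 (SE, limma adjusted p = 1.11e-08 and 6.13e-09). Vps35l stood at 7.68 to 8.17 before weaning and 7.08 to 7.27 after it. The other genes of the WASH, retriever and CCC machinery, which do not carry a member symbol, were lower in 15 of 17 and higher in 0, with a median of -0.58. WASH grows actin on endosomes where retromer sorts, and its subunits Washc4 (-1.90 ± 0.11) and Washc2 (-1.81 ± 0.08) had the largest differences of that list.

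CORVET and HOPS are tethers that join early endosomes to each other and late endosomes to lysosomes. Of the 8 members listed with them, 7 were lower and 0 higher (median -0.59). The 1 not called was Vps33b, listed here as a relative of the subunit Vps33a. Vps11, a core subunit of both, stood at 7.24 to 7.72 before weaning (median 7.52), at 6.35, 6.51 and 6.57 on day 24 and at 6.34, 6.48 and 6.77 on day 32. Its groups were well separated, and it was 1.98-fold lower (-0.99 ± 0.08, SE, limma adjusted p = 4.52e-09). Vps18, another core subunit, stood at 6.71 to 7.16 before weaning (median 6.99), at 5.47, 5.95 and 6.07 on day 24 and at 6.13, 6.32 and 6.44 on day 32. All day 24 arrays were below all day 32 arrays, and both ages were below all earlier ones. The difference between the stages was -0.90 ± 0.09 (SE, limma adjusted p = 8.64e-08).

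Vps41 and Vps39, the HOPS-specific subunits, differed by -0.69 ± 0.06 and -0.49 ± 0.06, and Vps8, specific to CORVET, by -0.46 ± 0.08, none with overlapping arrays. Vps8 minus Vps41 within an array rose by 0.23 (exact permutation adjusted p = 0.00659). Vps16 differed by -0.46 ± 0.08 with overlapping arrays, and its adjusted p was 0.053 within the arrays of the higher hybridization group. Vps33a, the SNARE-binding subunit of both tethers, was dim. It stood at 5.51 to 6.17 before weaning (median 5.94) and 4.96 to 5.15 after it (median 5.03), passing log2 6 on 4 arrays only, all before weaning. Its groups did not overlap (-0.86 ± 0.09, SE, limma adjusted p = 6.31e-08). Its relative Vps33b, which works with Vipas39 in apical sorting, was not called (-0.06 ± 0.13, limma adjusted p = 0.701). The within-array difference of the pair moved by -0.80 (exact permutation adjusted p = 0.00119, and 0.0815 within the higher hybridization group, 6 arrays against 4). Relative to its mean before weaning, it lay at -1.41 to -0.92 on day 24 and at -0.66 to -0.32 on day 32. The day 32 values overlapped those of day 4, at -0.54 to 0.49. Of 12 tested tether and phosphoinositide kinase genes with other symbols, 7 were lower and 2 higher, including the CORVET subunit Tgfbrap1 at -0.92 ± 0.08 and the class III kinase partner Uvrag at -0.68 ± 0.09 among the lower ones.

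GARP and EARP tether vesicles that return from endosomes, and share Vps51, Vps52 and Vps53. Vps54, the subunit particular to GARP, differed by -0.75 ± 0.09 and Vps50, its counterpart in EARP, by -0.59 ± 0.11 (SE), both without overlap of arrays (limma adjusted p = 6.1e-07 and 9.85e-05). Vps53 was lower, at a difference of -0.41 ± 0.06, Vps52 was higher by 0.34 ± 0.07, and Vps51 differed by 0.02 ± 0.09 and was not called. Probe sets disagreed here. A second probe set of Vps54 was called higher at 0.25 ± 0.09, a second one of Vps52 differed by -0.02, and the mean of the 3 probe sets of Vps53 gave 0.01. The direction in Vps52, Vps53 and Vps54 therefore holds for the brightest probe set of each.

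The ESCRT genes split in direction. In ESCRT-I, which collects ubiquitinated cargo, Vps28 (difference 0.24 ± 0.07) and Vps37b (0.34 ± 0.09) were higher and Vps37a (-0.31 ± 0.08) and Vps37c (-0.20 ± 0.08) lower. The 4 differences were small, and every one of these genes had overlapping arrays. Vps37c stood at 7.84 to 8.21 before weaning, at 7.72, 8.21 and 8.35 on day 24 and at 7.50, 7.58 and 7.69 on day 32. All its day 32 arrays, but not all its day 24 arrays, were below the earlier range. Vps37b entered the test through 4 arrays after weaning at or above log2 6 and 0 before. Vps37c lost its call (adjusted p = 0.0358) under quantile normalization (0.106) and cyclic loess (0.185) and in 9 of the 18 fits that left out 1 array, namely those without day 24 replicate 2 (0.169), day 32 replicate 1 (0.0859), day 4 replicates 2 and 3, day 7 replicate 1, day 9 replicates 1 and 3, day 11 replicate 1 or day 32 replicate 3. With the hybridization block the adjusted p was 0.116 for Vps37c and 0.0525 for Vps37a, and within the higher group 0.246 and 0.0734. Vps37a minus Vps37b moved by -0.66 within arrays (exact permutation adjusted p = 0.000395).

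Vps36, the ESCRT-II subunit that binds ubiquitin and lipid, stood at 6.64 to 7.07 before weaning (median 6.81), at 7.48, 7.52 and 7.75 on day 24 and at 7.33, 7.36 and 7.53 on day 32. All arrays after weaning were above all earlier ones (0.67 ± 0.08, SE, limma adjusted p = 3.22e-07). A dimmer probe set of Vps36 was called lower, with a difference of -0.30 ± 0.08, so the gene has no single direction on this array. Vps25, of the same complex, was not tested.

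Of the 10 ESCRT-III genes, whose filaments constrict the membrane neck, 3 were higher, 2 lower and 5 not called (median 0.11). Of all genes tested, 31.0% were higher and 41.8% lower. Chmp1b stood at 7.24 to 7.81 before weaning (median 7.45), at 8.47, 8.50 and 8.59 on day 24 and at 8.19, 8.41 and 8.42 on day 32. Its groups did not overlap, and it was 1.91-fold higher (0.93 ± 0.08, SE, limma adjusted p = 4.95e-09), the largest rise of the 63 members. Chmp4c, a variant of the main filament subunit with a role in the abscission checkpoint, stood at 7.54 to 7.93 before (median 7.76), at 8.35, 8.44 and 8.66 on day 24 and at 8.37, 8.45 and 8.48 on day 32. It too was above all earlier arrays, 1.65-fold (0.72 ± 0.07, SE, limma adjusted p = 1.34e-08).

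Chmp4b, the common form of that subunit, stood at 10.45 to 10.85 before and 10.65 to 11.04 after weaning and was not called (0.10 ± 0.07, limma adjusted p = 0.22), but was called higher under cyclic loess (adjusted p = 0.0145) and with the hybridization block (0.0168). A dimmer Chmp4b probe set was called higher by 0.50 ± 0.07. Chmp4b minus Chmp4c within an array moved by -0.62 without overlap (exact permutation adjusted p = 0.000296). Chmp2b was higher by 0.45 ± 0.10, while its other probe set differed by 0.02, and Chmp2a differed by 0.04 ± 0.08 and was not called. Chmp2a minus Chmp2b moved by -0.41 (exact permutation adjusted p = 0.0033), and by -0.20 with the mean of each gene's probe sets (adjusted p = 0.0571).

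Chmp7, which anchors ESCRT-III at the nuclear envelope, was lower, with a difference of -0.32 ± 0.07 and an adjusted p of 0.0677 within the higher hybridization group, and Chmp5 differed by 0.12 ± 0.06 and was not called, but was called higher under quantile normalization (adjusted p = 0.0379), cyclic loess (0.00306) and array weights (0.0261). Chmp1a was called lower, with a difference of -0.36 ± 0.14 (limma adjusted p = 0.0292), which became 0.03 with the hybridization group as a block. Its call was also lost under cyclic loess (adjusted p = 0.0625), with Xist as a covariate (0.145) and without day 7 replicate 1 (0.0502), day 24 replicates 2 (0.0571) or 3 (0.0769) or day 32 replicate 1 (0.0849). Chmp6 differed by -0.15 ± 0.12 and was not called, but by 0.25 with that block (adjusted p = 0.0386). Chmp3 differed by 0.22 ± 0.14, also not called, by 0.59 with the block (adjusted p = 0.0023) and by 0.70 within the higher hybridization group. A slightly dimmer Chmp3 probe set was called higher by 0.23 ± 0.08. Vps4a and Vps4b, the ATPases that take the filaments apart, differed by 0.06 ± 0.07 and -0.07 ± 0.07, neither called, with overlapping arrays. Vps4a minus Vps4b moved by 0.13 (exact permutation adjusted p = 0.138, and 0.0364 without day 4 replicate 2). Of 14 ESCRT and multivesicular body genes with other symbols, 4 were higher and 2 lower (median 0.09), beside 31.0% and 41.8% of all genes. Among them were Ist1, a relative of ESCRT-III, at 0.50 ± 0.06 and the adaptor phosphatase Ptpn23 at -0.66 ± 0.06.

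**Figure D3:**
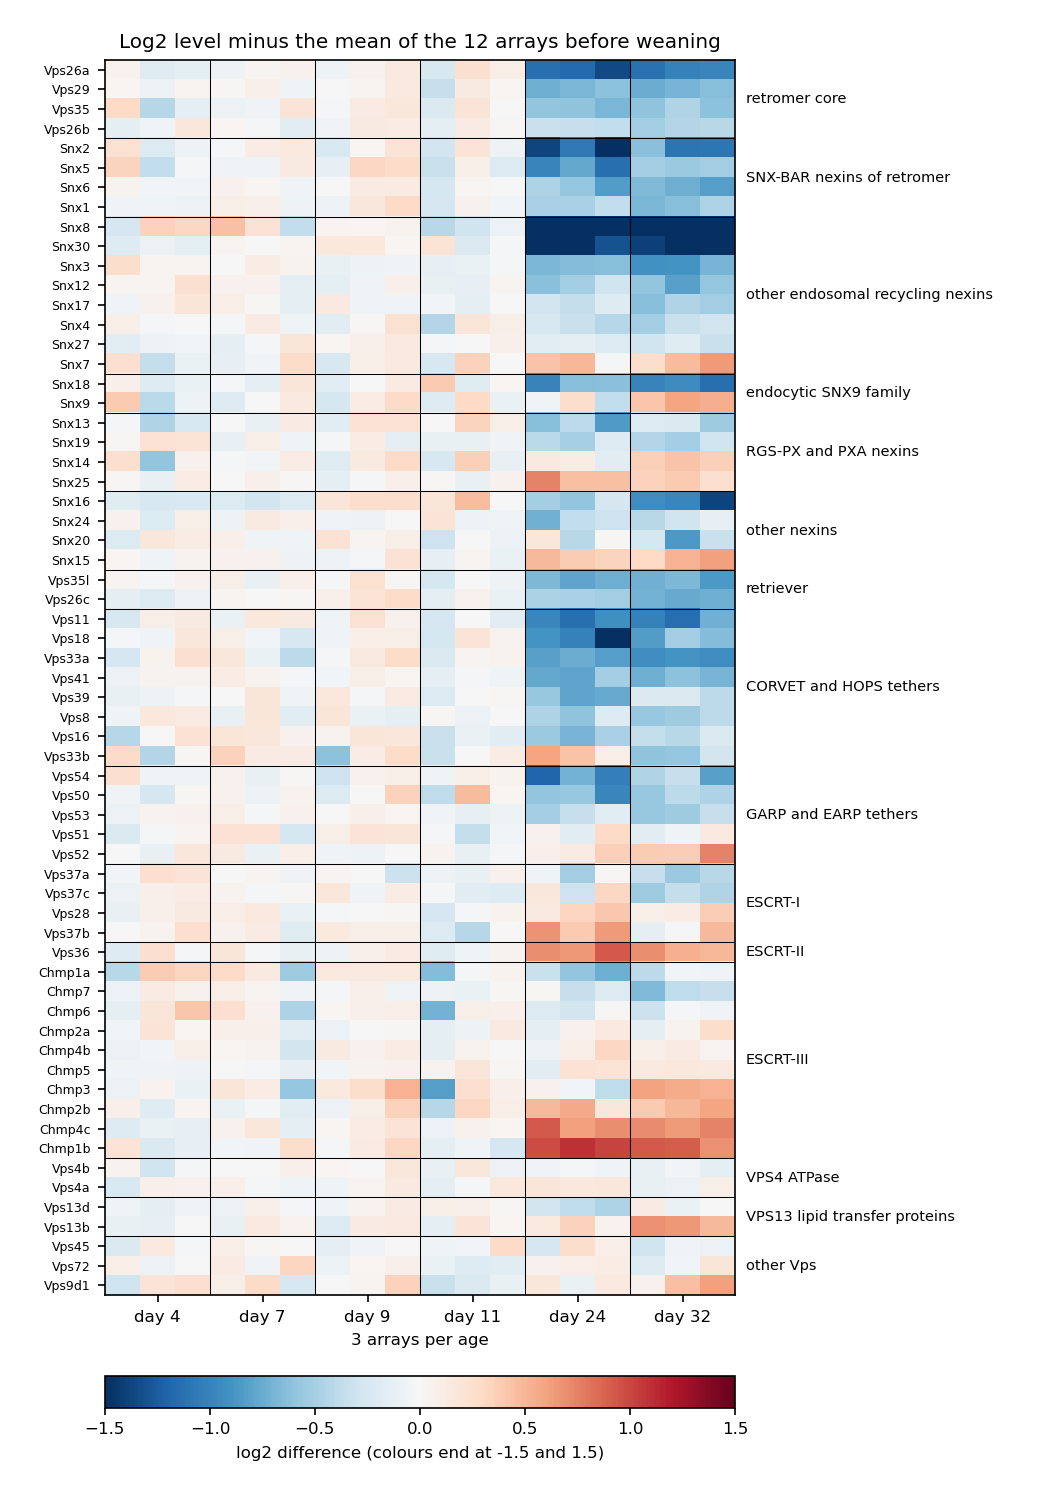
Log2 level of each of the 63 tested members (rows, grouped by complex) on each of the 18 arrays (columns, ordered by age), minus the gene's mean over the 12 arrays before weaning. Colours end at -1.5 and 1.5 (log2), and Snx8 and Snx30 pass the lower end on most arrays after weaning; the change of colour falls between day 11 and day 24 for most genes, and Vps33b and Vps37c differ in colour between day 24 and day 32.

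Vps13 proteins are long bridges that pass lipids between membranes. Vps13b, of the Golgi and endosomes, was higher after weaning (0.40 ± 0.08, limma adjusted p = 0.00014) and Vps13d lower (-0.18 ± 0.06, limma adjusted p = 0.00917). The call of Vps13d was lost under cyclic loess (adjusted p = 0.0936) and with the hybridization block (0.0614). Vps45, a fusion factor of early endosomes, Vps9d1, which carries a VPS9 domain, and Vps72, a chromatin protein that shares the prefix without acting at endosomes, were not called, with differences of -0.05 ± 0.08, 0.22 ± 0.11 and 0.04 ± 0.07. Vps9d1 was called higher under quantile normalization (adjusted p = 0.0095) and cyclic loess (0.0198), with the block (0.0085), and in 5 of the 18 fits that left out 1 array, those without day 4 replicate 3, day 7 replicate 2, day 9 replicate 3, day 24 replicate 2 or day 32 replicate 1.

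**Figure D4:**
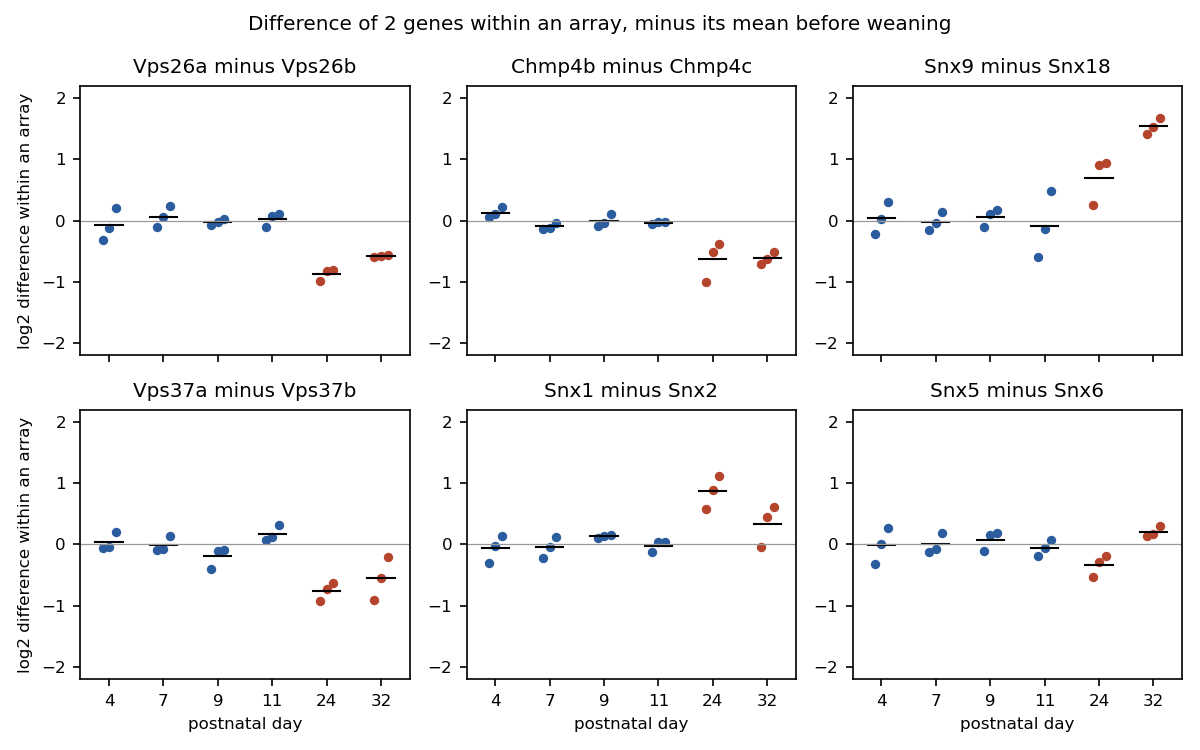
Log2 difference between the genes of a pair within an array, minus its mean over the 12 arrays before weaning (y axis), against postnatal day (x axis) for 6 of the 11 tested pairs. Points are arrays and bars the mean of 3; Vps26a minus Vps26b and Chmp4b minus Chmp4c lie below all earlier arrays after weaning, while Snx5 minus Snx6 lies at -0.53 to -0.19 on day 24 and at 0.14 to 0.30 on day 32.

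Over the 11 pairs of related members that could be tested, 9 had an adjusted p under 0.05. The exceptions were Snx5 with Snx6 and Vps4a with Vps4b. With the mean of each gene's probe sets 8 of the 11 were under 0.05. Snx5 with Snx6 was then among them, and Chmp2a with Chmp2b and Snx3 with Snx12 were not. The share of unrelated gene pairs that would pass was not counted, so the count is not particular to related members. Within the higher hybridization group, with 6 arrays after and 4 before weaning and 210 allocations, 8 of the 11 had an adjusted p under 0.05.

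Of the 3 intervals tested, day 4 to day 11, day 11 to day 24 and day 24 to day 32, that from day 11 to day 24 held the most calls. From day 4 to day 11 limma called 0 of 63 members in either direction, beside 2.89% of all genes (1.54% lower and 1.35% higher). Without adjustment 3 members had a p under 0.05, namely Snx16 (0.44, adjusted p = 0.0839), Snx13 (0.38) and Snx19 (-0.24). The share of all genes at that unadjusted threshold was not counted, and some unchanged genes pass it by chance. Array weights gave 2 calls, the hybridization group as a block 1, and leaving out day 11 replicate 3 gave 1. Of all 8622 genes, array weights called 556 lower and 373 higher, and the block 297 lower and 187 higher. From day 11 to day 24, 30 members were lower, beside 32.3% of all genes, and 8 higher, beside 26.8%. All 30 and all 8 were also called in the same direction between the stages, which share those arrays. Quantile normalization of the deposited values gave 26 lower and 12 higher, beside 2573 and 2621 of all 8622 genes. The largest falls over this interval were Snx8 (-3.98 ± 0.28), Snx30 (-1.74 ± 0.17) and Vps26a (-1.26 ± 0.12), and the largest rises Chmp1b (1.18 ± 0.13), Vps36 (0.82 ± 0.12) and Vps37b (0.78 ± 0.15). With the hybridization group as a block 24 were lower and 11 higher, beside 2548 and 2450 of all 8622 genes. In the higher group alone fewer members, and fewer of all genes, were called lower than in the main fit. That group has 1 array on day 11 against 3 on day 24, so its counts are not given.

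From day 24 to day 32, 3 members were lower, beside 6.23% of all genes, and 3 higher, beside 6.09%. Vps33b stood at 6.08, 6.41 and 6.57 on day 24 and 5.39, 5.40 and 5.71 on day 32. All day 24 arrays were above all day 32 arrays, and its earlier range was 5.37 to 6.33. Its difference from day 24 to day 32 was -0.85 ± 0.21 (limma adjusted p = 0.0145). Snx16 differed by -0.65 ± 0.13 (adjusted p = 0.00392) and Vps37c by -0.50 ± 0.13 (adjusted p = 0.0191). Vps39 rose from 5.89, 5.93 and 6.12 to 6.30, 6.47 and 6.47 (0.43 ± 0.10, limma adjusted p = 0.012), all of them below the earlier arrays. Vps13b rose from 6.86, 6.96 and 7.16 to 7.30, 7.47 and 7.50. Vps13d rose from 7.29, 7.38 and 7.48 to 7.66, 7.76 and 7.88, beside an earlier range of 7.61 to 7.88.

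These late calls depended on single arrays. Lower calls numbered 1 without day 24 replicate 1 or day 32 replicate 1, and 6 without day 24 replicate 2. Higher calls numbered 1 without day 24 replicate 3, day 32 replicate 1 or day 32 replicate 2, and 5 without day 11 replicate 1 or day 24 replicate 2. Snx16 kept its call in all 18 such fits. With the arrays of days 24 and 32 alone, Vps39, Vps13b, Vps13d and Vps37c were not called (adjusted p = 0.0851, 0.0961, 0.117 and 0.118).

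Among receptors that these coats carry, 3 of 7 tested were lower and 3 higher, beside 41.8% and 31.0% of all genes. The mannose 6-phosphate receptor Igf2r, a classic retromer cargo, was 3.37-fold lower (-1.75 ± 0.10), and sortilin, Sort1, was 2.28-fold higher (1.19 ± 0.06). A list of genes of suckling endocytosis, named in earlier results of these data and so no independent evidence, was lower in 8 of 8 with a median of -3.83.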

How the data were processed

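The deposited series table holds log2 expression levels of 45101 probe sets on 18 Affymetrix arrays. Per the submitters' processing notes the authors used RMA, with no version or options named. RMA corrects background and brings arrays to a common distribution, so fold changes of dim genes are compressed or depend on that correction. Labelling started from the poly-A tail with an oligo-dT primer, per the labels' protocols. The sources used here name neither the array model nor scan dates.

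Probe sets were named through the platform annotation, in which 34958 probe sets had 1 symbol, 932 several and 9211 none. All 159 member probe sets matched RefSeq's gene table of GRCm38.p6 by Entrez identifier, and 0 symbols changed. 4 probe sets shared by a member and another symbol were left out. Of the members, 30 had 1 probe set and 45 several.

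Genes whose brightest probe set reached log2 6 on at least 3 arrays were fitted by lmFit and eBayes (limma 3.58.1, R 4.3.3), age being a factor with 6 levels over 18 arrays (12 residual degrees of freedom, median residual SD 0.176). Benjamini-Hochberg adjustment ran over 8622 genes, and a gene was called below 0.05. The stage comparison took the mean of the later ages minus the mean of the earlier ones. Errors of differences are standard errors. Pairs were compared by exact permutation of arrays. The fit was tested on simulated data. Array number limits the precision, and mice are the replicates.

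The lowest correlation between arrays of the same age was 0.983, and none were identical. The members, gene lists and pairs were chosen with earlier results of these data known. Members named with values were the retromer core, the largest differences of each complex and comparison, pairs, and genes whose probe sets differ in direction. The others were added so that each tested member is accounted for. Alternatives were other filters, probe set means, normalizations, eBayes options, array weights, hybridization group, Xist level and each array left out. Pairs were rerun with probe set means, quantile normalization, cyclic loess and each array left out, and, chosen after seeing the data, within the higher hybridization group, but not with Xist. The component without Snx8 was also added then.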

Additional observations from a re-analysis of the deposited data

Results flagged for a closer look

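Among the 6 arrays after weaning, 2 of 63 tested members had an array far from the others by Dixon's criterion on the gap divided by the range, and chance gives about 1 in 20. Chmp5, an ESCRT-III subunit, stood at 9.71 on day 24 replicate 1 and at 10.01 to 10.08 on the others (gap over range 0.796). Without that array its difference after minus before weaning was 0.18 (limma adjusted p = 0.008), and with it 0.12 (adjusted p = 0.0999). Vps50, the EARP tether subunit, stood at 6.06 on day 24 replicate 3 and at 6.45 to 6.66 on the others (0.655), and its call did not depend on that array.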

How the results depend on the processing

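No paired analysis was possible because replicate numbers follow accession order and the ages share no pairing in the labels. A filter at log2 8 left 30 tested members, of which 21 changed across ages, 19 were lower and 5 higher after weaning, 15 lower and 4 higher from day 11 to day 24, and 1 lower and 0 higher from day 24 to day 32. Averaging each gene's probe sets left 44, with 28 changed across ages, 22 lower after weaning and 19 lower from day 11 to day 24. After weaning, the filter at log2 8 gave 1583 lower and 1276 higher of 3740 genes, and the averaging 2345 lower of 5953. From day 4 to day 11, array weights gave 2 calls and the hybridization group as a block 1. Within the higher hybridization group, which holds 0 arrays of day 9 and 1 each of days 7 and 11, 14 were lower from day 11 to day 24 and 1 higher from day 24 to day 32. In that last comparison the block gave 5 higher, quantile normalization 6 lower, cyclic loess 5 lower, and a fit of the compared ages alone 1 higher. Apart from the smaller number of genes under the first pair of settings, the cause was not tested.

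Leaving out 1 array at a time gave 43 to 50 members changed across ages, 35 to 38 lower and 11 to 13 higher after weaning, and 0 to 1 called from day 4 to day 11. It gave 26 to 30 lower and 6 to 9 higher from day 11 to day 24, 1 to 6 lower and 1 to 5 higher from day 24 to day 32, and 9 to 10 pairs. Reversals were counted only where the main or the changed fit gave a call. They were Chmp1a at 0.029 with the hybridization block and 0.042 in the higher group, and Chmp6 at 0.25 with the block. With the mean of probe sets they were Snx13 at 0.016 and Vps53 at 0.014. The brightest retromer call that was lost was Vps35 under that mean, where its dim second probe set enters (-0.26, adjusted p = 0.267). Of 1494 single-gene values without 1 array, 1455 had no call gained, lost or reversed, and of 1018 under other settings 959. A change of sign where neither fit gave a call was counted among these. The median of all genes moved by 0.07 at most under the normalizations. The table gives no detection calls, which limits Snx8, Snx30 and Vps33a, dim after weaning.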

Other observations

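Residuals within an age describe which members varied together between mice of the same age. The median Pearson correlation over gene pairs was 0.54 in the retromer core, 0.44 in the SNX-BAR nexins, 0.37 in ESCRT-I and 0.33 in ESCRT-III. In the CORVET and HOPS list, which includes Vps33b, it was 0.23. Over all 1953 pairs of the 63 tested members it was 0.15. It was 0.06 in the other Vps genes, 0.0087 in the RGS-PX and PXA nexins, -0.02 in the other nexins of endosomal recycling, -0.09 in the further nexins and -0.17 in the GARP and EARP genes. The values share the same 18 arrays and their RNA quality and hybridization, so they are given as a description.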
